A study of Mus musculus with 48 samples.

Results

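The 10 genes described here, Vegfa, Adm, Slc2a1, Ldha, Pgk1, Car9, Bnip3, Egln3, Ndrg1 and Ankrd37, respond to low oxygen or carry out glycolysis, and they were taken by symbol from the 55450 genes of a count table of 48 mouse melanomas. Their RNA was mostly high or low together from tumor to tumor, less so at day 7 than in the earlier tumors. Levels spanned up to 20.6-fold, for Car9. Tumors of the same group were up to 8.24-fold apart for that gene. In untreated WT tumors Vegfa was 2.89-fold higher at day 1 than at 0 h and Car9 2.96-fold higher, and neither passed the test across all genes that were kept by the filter on low counts. The 0 h tumors also held more RNA of skeletal muscle markers, 1008 to 7316 counts per 1000000 against 4.72 to 31.5 at day 1. With these markers as a covariate, the median log2 fold change of the 10 genes was 0.30, against 1.13 without. None of the 10 genes had an adjusted p under 0.05 in any of 25 comparisons between conditions (edgeR, 0 of 250 pairs of a gene and a comparison, with 20 at an unadjusted p under 0.05), and the Wald test of DESeq2 gave 1, Ldha in tumors labelled iNOS KO against WT after anti-PD-1 at day 7, where 5.97% of all genes passed by that tool.

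Cells sense oxygen with prolyl hydroxylases, which mark the alpha subunits of the hypoxia-inducible factors (HIFs, encoded by Hif1a and Epas1) for degradation while oxygen is present. When oxygen is short the alpha subunits persist, pair with the subunit encoded by Arnt, and bind short DNA motifs beside genes that import glucose, turn it into lactate, handle the acid, remove mitochondria and call in blood vessels. Solid tumors such as melanoma commonly outgrow their vessels, so RNA of these genes is often read as a sign of poorly oxygenated tissue, and nitric oxide, which the enzyme iNOS (gene Nos2) makes, is known to act on HIF stability.

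All tumors came from B16-D5, a poorly immunogenic and metastatic subclone of the B16 melanoma line, placed under the flank skin of C57BL/6J mice 8 days before treatment, with 1 tumor per mouse (bought aged 4 weeks, then kept 2 weeks) and 3 tumors in each of 16 conditions. A first experiment had 30 tumors of WT mice in 10 groups. These were untreated tumors at 0 h, and untreated, IgG-treated and anti-PD-1-treated tumors at 6 h, day 1 and day 3. A second experiment had 18 tumors at day 7, from WT mice and mice labelled iNOS KO (a deletion of the gene for iNOS), each untreated, given IgG or given anti-PD-1. IgG is the control antibody and anti-PD-1 blocks an inhibitory receptor of T cells, and the schedule of treated mice was 250 µg of antibody on day 0 and again on day 3, so that tumors taken at 6 h and day 1 preceded the second dose. The knockout is of the host mouse, and the same B16-D5 cells were injected into both genotypes. Conditions were read from the sample titles, since other label fields conflict with them. The titles of the tumors called 6 h here read D0, and the titles of the second experiment state no time.

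By role, the group holds secreted signals to vessels, a transporter, enzymes of glycolysis, an enzyme of acid handling, a mitochondrial protein, an oxygen sensor and stress-responsive genes, here with positions on GRCm38 from GENCODE vM21. The secreted signals are Vegfa (ENSMUSG00000023951.17, chr17:46016993-46032369), an attractant for blood vessels, and Adm (ENSMUSG00000030790.15, chr7:110627661-110629820), a peptide that widens vessels. Glucose enters through the transporter GLUT1, the product of Slc2a1 (ENSMUSG00000028645.11, chr4:119108711-119137983). The glycolytic enzymes are Pgk1 (ENSMUSG00000062070.12, chrX:106187100-106203699), which makes ATP, and Ldha (ENSMUSG00000063229.15, chr7:46841475-46855627), which converts pyruvate to lactate. Car9 (ENSMUSG00000028463.14, chr4:43506966-43513729) encodes a carbonic anhydrase of the cell surface, and Bnip3 (ENSMUSG00000078566.8, chr7:138890836-138909519) a mitochondrial protein that promotes the removal of mitochondria. Egln3 (ENSMUSG00000035105.5, chr12:54178981-54203860) encodes an oxygen-sensing prolyl hydroxylase that is itself a HIF target. Ndrg1 (ENSMUSG00000005125.13, chr15:66929318-66969640) is a stress-responsive gene and Ankrd37 (ENSMUSG00000050914.16, chr8:45996902-46005707) an ankyrin-repeat gene, both known to be induced when oxygen falls.

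HIFs bind the core letters ACGTG or GCGTG, and these letters were searched on both strands in the 250 bases before each annotated start, to describe the sequence beside the 10 genes. The genes were taken for their known response to low oxygen or role in glycolysis. A share above that of all windows was therefore likely from the start and is no test. RefSeq (GRCm38.p6) gave 11 such windows for 9 of the 10 genes, 2 each for Ldha and Vegfa, and none for Ndrg1. At least 1 motif lay in 10 of the 11 windows (90.9%), against 38.6% of 32851 windows of the same length. ACGTG lay in 72.7% of the 11 and 16.6% of all windows, and GCGTG in 54.5% and 28.2%. The window without a match was that of the more upstream Vegfa start. The Vegfa window with matches, chr17:46025164-46025413, lies inside the gene. It overlaps annotated exons, as do the windows of Ankrd37, Bnip3, Car9 and Slc2a1. The windows of Ldha, Pgk1, Adm and Egln3, chosen as windows that hold a match and overlap no annotated exon, and for Ldha as the one of its 2 such windows with more matches, are shown 5′ to 3′ on the gene's strand, with the motif letters of either strand in capitals, where CACGTG reads as ACGTG on both strands and counts on each.
Ldha, chr7:46845554-46845803, plus strand: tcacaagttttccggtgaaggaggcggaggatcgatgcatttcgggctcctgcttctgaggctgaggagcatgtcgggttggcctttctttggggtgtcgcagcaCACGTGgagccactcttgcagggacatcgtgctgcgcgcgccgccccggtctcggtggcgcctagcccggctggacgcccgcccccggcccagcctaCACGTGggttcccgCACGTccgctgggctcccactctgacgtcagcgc
Pgk1, chrX:106186850-106187099, plus strand: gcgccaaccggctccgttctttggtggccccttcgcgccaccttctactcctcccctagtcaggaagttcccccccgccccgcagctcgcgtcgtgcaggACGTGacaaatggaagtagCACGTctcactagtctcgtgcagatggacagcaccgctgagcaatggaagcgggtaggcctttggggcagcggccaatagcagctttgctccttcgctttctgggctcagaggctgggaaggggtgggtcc
Adm, chr7:110627407-110627656, plus strand: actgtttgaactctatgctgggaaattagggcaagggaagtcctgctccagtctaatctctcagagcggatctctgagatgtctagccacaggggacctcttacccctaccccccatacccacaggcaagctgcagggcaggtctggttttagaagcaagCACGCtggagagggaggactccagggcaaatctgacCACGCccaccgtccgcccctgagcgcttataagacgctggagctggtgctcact
Egln3, chr12:54203875-54204124, minus strand: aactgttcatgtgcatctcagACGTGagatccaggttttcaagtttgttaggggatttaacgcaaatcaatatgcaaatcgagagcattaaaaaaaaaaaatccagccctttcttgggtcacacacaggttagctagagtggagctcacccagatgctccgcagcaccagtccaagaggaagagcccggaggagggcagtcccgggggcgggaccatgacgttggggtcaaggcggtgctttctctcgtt
The Ldha window shown holds 5 matches to ACGTG, between 34 and 145 bases before the start, the Pgk1 window 2 (131 and 150 bases), the Adm window 2 to GCGTG (54 and 90 bases) and the Egln3 window 1 to ACGTG (229 bases). The other Ldha window, chr7:46846832-46847081, holds 1 match to GCGTG, 59 bases before its start. Both Ldha windows lie between exons of the annotated gene, and the Pgk1, Adm and Egln3 windows just before theirs. A match is a description of the letters only.

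Libraries held 25574203 to 47687872 counts on genes in the first experiment and 11625862 to 40959309 in the second, and levels are given as CPM (counts per 1000000 of the TMM-adjusted library total), each experiment normalized on its own. In 3 libraries of day 7, genes of olfactory, vomeronasal and taste receptors, which melanomas are not known to use, held over 500 CPM. These were WT anti-PD-1 replicate 3 (3903 CPM, also the smallest library), WT anti-PD-1 replicate 4 (1374 CPM) and untreated iNOS KO replicate 1 (973 CPM), while the other libraries of day 7 had at most 246 CPM. Markers of pigment cells were high in all tumors, with a sum of 12058 to 27043 CPM over 9 melanoma markers. The 8 skeletal muscle markers summed to more than 4000 CPM in 3 WT tumors (2 untreated at 0 h and 1 given IgG at day 1), against a median of 18.2 CPM in that experiment. In bulk RNA, fewer cells of a type and less RNA per cell cannot be told apart.

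Per kilobase of exon, Ldha and Pgk1 were the most abundant of the 10 genes in WT tumors of the first experiment and Ankrd37 the least. The median levels over these 30 tumors were 372 CPM per kb for Ldha and 286 for Pgk1, followed by 95.7 for Bnip3, 84.8 for Vegfa, 58.1 for Adm, 45.1 for Car9, 34.1 for Slc2a1, 12.7 for Ndrg1, 9.65 for Egln3 and 3.16 for Ankrd37. Car9 varied most between tumors, from 15.6 to 322 CPM, a range of 20.6-fold. Bnip3 followed with 39.8 to 461 CPM and Ankrd37 with 1.41 to 14.6 CPM, or 10.4-fold, whereas the glycolytic enzymes had the narrowest ranges, 3.44-fold for Pgk1 and 2.68-fold for Ldha. At day 7 all 10 ranges were narrower, from 2.05-fold for Adm to 5.20-fold for Egln3. Some counts may belong to similar or overlapping genes. Annotated copies with at least 90% identity over at least 200 bases held 2.03% of the counts on Bnip3 and its 6 copies, 0.0884% for Pgk1 and 0.0713% for Ldha. The exons of Ankrd37 overlap those of Ufsp2 and Lrp2bp on the opposite strand, which held 90.5% and 30.5% of the counts on each pair. The paper describes the libraries as strand-specific, so the low counts of Ankrd37 rest on the counting having kept the strands apart.

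Averaged as log2(CPM + 0.5), the 10 genes had a mean between 5.65 and 8.13 in single WT tumors and between 6.33 (untreated, 0 h) and 7.40 (anti-PD-1, day 1) in group means. The SD between tumors of a group was 0.550 and the SD of the group means 0.350 on this scale. At day 7 the same values were 0.342 and 0.183, with group means from 6.90 (untreated, labelled iNOS KO) to 7.37 (IgG, WT).

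**Figure D1:**
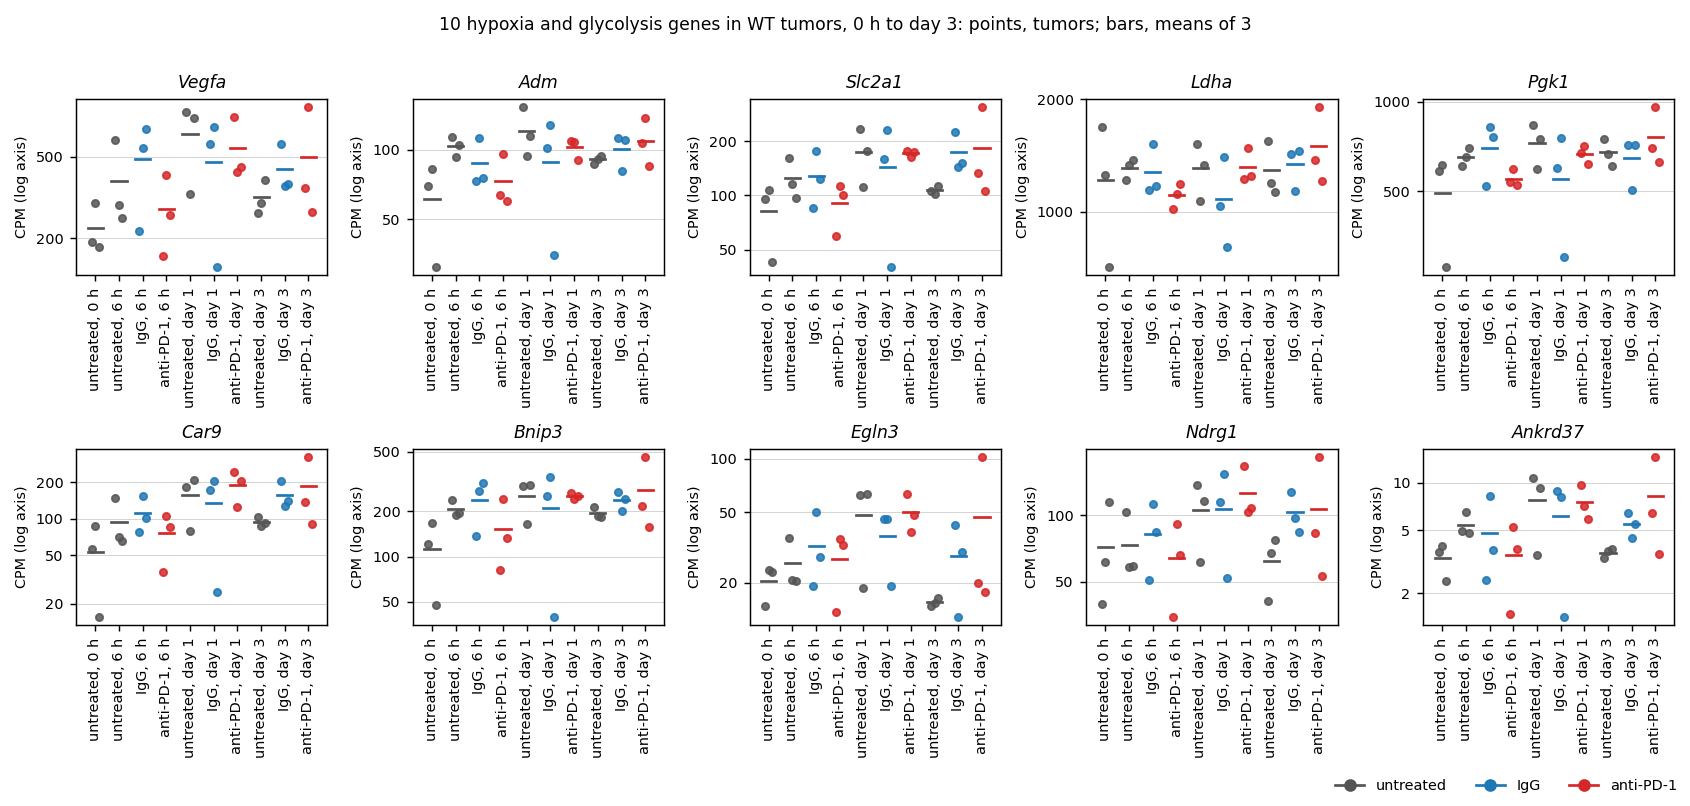
Level of each of the 10 genes (CPM, log axis) in the 30 WT tumors of the first experiment by time point and treatment, with 1 point per tumor and bars at group means. Tumors of a group are often several-fold apart, and 1 anti-PD-1 tumor at day 3 holds the highest value for 9 of the 10 genes.

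Untreated WT tumors over time show how the genes ran without therapy. Vegfa had 191, 298 and 181 CPM in the 3 tumors at 0 h, 603, 289.9 and 252 at 6 h, 827, 328 and 777 at day 1 and 267, 299 and 384 at day 3. Every tumor of day 1 lay above every tumor of 0 h, and 2 of the 3 lay above every untreated tumor of the other times. The log2 fold change of Vegfa from 0 h to day 1 was 1.53 (SE 0.52, adjusted p = 0.497). Adm had 69.8, 82.5 and 31.2 CPM at 0 h, 113, 93.3 and 105 at 6 h, 154, 94.2 and 115 at day 1 and 87.3, 91.7 and 94.0 at day 3. For Adm, the tumors of 6 h, day 1 and day 3 were all above those of 0 h. Its log2 fold change was 0.76 (SE 0.34, adjusted p = 0.689) at 6 h (0.48 without replicate 3 of 0 h) and 0.98 (SE 0.34, adjusted p = 0.498) at day 1.

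Car9 had 56.4, 86.7 and 15.6 CPM at 0 h and 182, 79.9 and 208 at day 1, with 1 tumor of day 1 below the highest of 0 h, and a log2 fold change of 1.56 (SE 0.60, adjusted p = 0.611). The glucose transporter Slc2a1 had 95.3, 107 and 42.9 CPM at 0 h and 234, 111 and 176 at day 1, without overlap, and a log2 fold change of 1.09 (SE 0.45, adjusted p = 0.671). Egln3 had 14.8, 23.5 and 22.98 CPM at 0 h, 62.6, 18.7 and 63.1 at day 1 and 14.8, 15.5 and 16.3 at day 3. The day 1 tumor with the low Egln3 value was the one lowest for Vegfa, Car9 and Slc2a1 as well. The log2 fold changes at day 1 were 1.24 (SE 0.56, adjusted p = 0.701) for Egln3, 1.18 (SE 0.52, adjusted p = 0.693) for Bnip3 and 1.24 (SE 0.57, adjusted p = 0.709) for Ankrd37. Ndrg1 (0.55), Pgk1 (0.56) and Ldha (0.10) had smaller differences, and Ldha had 1687, 1253 and 713 CPM at 0 h and 1517, 1069 and 1337 at day 1, which overlap widely. In all, 7 of the 10 genes were higher at day 1 at an unadjusted p under 0.05, against 2.58% of the 26848 genes tested, and 3 of the 10 did not overlap (Slc2a1, Adm and Vegfa), against 3.77%. At 6 h, 1 gene (Adm) had such a p, against 1.11%, and 3 did not overlap (Adm, Bnip3 and Ankrd37), against 1.89%. At an adjusted p under 0.05, 0 of the 10 and 0% of all genes passed in either comparison. With no filter on low counts, 3 of the 10 passed at day 1 (Car9, Adm and Vegfa), all higher, against 0.0527% of the 49294 genes of that fit called higher and 0.767% called lower. The log2 fold change of Vegfa was 1.54 in that fit, with an SE of 0.33 in place of 0.52.

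The median log2 fold change of the 10 genes against 0 h was 0.66 at 6 h, 1.13 at day 1 and 0.42 at day 3, against −0.02, −0.04 and 0 for all genes tested. These comparisons share the 0 h tumors. The tumors of 0 h differed from those of day 1 in tissue markers as well. Their 8 muscle markers summed to 1008, 4072 and 7316 CPM, against 4.72 to 31.5 CPM in the untreated tumors of day 1, and their 7 keratinocyte markers to 19.8, 315 and 4341 CPM, against 4.44 to 8.54 CPM. All 8 muscle and 7 keratinocyte markers were lower at day 1 at an unadjusted p under 0.05, against 4.27% of all genes and 0 of the 10. The 0 h tumor with the most of both lists was also the lowest of the 3 for 8 of the 10 genes, while its Ndrg1 was the highest (39.8, 61.5 and 115 CPM). With the summed muscle markers as a covariate, a fit chosen after seeing the data, the median of the 10 genes from 0 h to day 1 was 0.30 and 0 of them had an unadjusted p under 0.05. In the same fit the median was 0.31 at 6 h and −0.06 at day 3, where 4 of the 10 genes were positive. The 6 h median was also 0.35 without untreated replicate 1 of 6 h, and the day 3 median was 0.24 without replicate 3 of 0 h and 0.64 without replicate 2 of 0 h. Without the 3 libraries over 4000 CPM of muscle markers, which left 1 tumor at 0 h, assumed to vary like the other groups, the median was 1.10 and 6 of them did, all higher, against 1.55% of all genes in that fit.

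The 0 h tumors do not enter the comparison of day 1 with 6 h over the untreated, IgG and anti-PD-1 groups together. Here the log2 fold change was 0.78 (SE 0.34, adjusted p = 0.251) for Car9, 0.66 (SE 0.32, adjusted p = 0.295) for Egln3 and 0.62 (SE 0.27, adjusted p = 0.239) for Ndrg1. These 3 of 10 had an unadjusted p under 0.05, all higher at day 1, against 9.39% of all genes tested, and 0 of 10 were lower, against 7.55%. Car9 and Ndrg1 passed the adjusted threshold with no filter on low counts, with SEs of 0.22 and 0.18, against 1.28% of all genes called higher in that fit. With the muscle markers as a covariate the median of the 10 genes was 0.28, with 7 positive and 0 at an unadjusted p under 0.05. With 1 tumor left out it ran from 0.43 to 0.72, with 0 to 7 genes at such a p. With none of these changes the median of the 10 genes was 0.55 at day 1, and it was 0.23 at day 3 (0.03 with the muscle covariate and 0.08 without anti-PD-1 replicate 4 of day 3), both against 6 h, and that of all genes 0.05 and 0.01. Vegfa (0.57) and Slc2a1 (0.52) had differences of like size at day 1, and Ldha (0.00) and Pgk1 (0.03) almost none. The 95% interval of the Ldha difference ran from −0.27 to 0.28.

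The effect of anti-PD-1 was compared with IgG, the control antibody, and with untreated tumors at 6 h, day 1 and day 3. Both comparisons at a time share the anti-PD-1 tumors. At 6 h all 10 genes had negative log2 fold changes against IgG, with a median of −0.41 against −0.07 for all genes. Without IgG replicate 2 the median was −0.05 with 5 of 10 genes positive, without anti-PD-1 replicate 1 it was −0.13, and with the muscle covariate −0.20. Vegfa had 164, 406 and 259 CPM after anti-PD-1 and 217, 553 and 687 after IgG, which overlap, and a log2 fold change of −0.81 (SE 0.51, adjusted p = 0.976). Bnip3 had 81.6, 240.1 and 133 CPM and 136, 272 and 308 CPM, with a log2 fold change of −0.65 (SE 0.51, adjusted p = 1). In each of these groups 1 tumor was low for both genes, replicate 1 in both. Those tumors had 1198 and 379.7 CPM of muscle markers and 247 and 226 CPM of keratinocyte markers, against a median of 18.2 and 8.44 CPM over the 30 tumors, and the part of these tissues in the result was not tested. Against untreated tumors the median at 6 h was −0.38, and it was −0.18 without anti-PD-1 replicate 1, where 3 of 10 genes were positive.

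At day 1 the 10 genes had positive log2 fold changes against IgG, with a median of 0.27, from 0.22 for Adm and Vegfa to 0.50 for Car9. Car9 had 242, 124 and 204 CPM after anti-PD-1 and 173, 204 and 24.8 after IgG. The low IgG tumor, replicate 6, was the lowest of all 30 for Vegfa, Slc2a1, Bnip3 and Ankrd37, and held the most muscle marker RNA (8757 CPM). Without it the median was −0.17, with 2 of 10 genes positive. Against untreated tumors of day 1 the median was −0.02, and with 1 tumor left out it ran from −0.26 to 0.18.

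At day 3 the 10 genes had positive log2 fold changes after anti-PD-1, with a median of 0.72 against untreated tumors and 0.21 against IgG. Egln3 had 19.98, 103 and 17.8 CPM after anti-PD-1, 42.1, 12.8 and 29.99 after IgG and 14.8, 15.5 and 16.3 without treatment. The anti-PD-1 tumors all lay above the untreated ones, but 2 of them by little and replicate 4 by far. The log2 fold change of Egln3 against untreated tumors was 1.59 (SE 0.57, adjusted p = 1), and 0.31 without that tumor. Ankrd37 had 6.48, 14.6 and 3.53 CPM after anti-PD-1 and 3.33, 3.71 and 3.78 without treatment, with a log2 fold change of 1.19 (SE 0.57, adjusted p = 1), and 0.50 without the same tumor. These 2 of 10 genes had an unadjusted p under 0.05, against 0.786% of all genes. Without replicate 4 the median of the 10 genes was 0.13 against untreated tumors and −0.37 against IgG.

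IgG-treated tumors of day 3 were compared with untreated ones for the effect of the control antibody, and the median was 0.53, or 0.34 without IgG replicate 2. Slc2a1 had 225, 144 and 152 CPM after IgG and 105, 102 and 113 without treatment, with a log2 fold change of 0.70 (SE 0.45, adjusted p = 1). Car9 had 202, 127 and 141 CPM after IgG and 103, 86.6 and 92.3 without treatment, with a log2 fold change of 0.74 (SE 0.59, adjusted p = 1). With Ankrd37 and Ndrg1, they were 4 of 10 genes whose groups did not overlap, all higher after IgG, against 6.53% of all genes, and 0 of the 10 had an unadjusted p under 0.05. With only these 2 groups in the fit 6 of 10 had such a p, all higher, against 4.71% of all genes, and with no filter on low counts 3 of 10 did, against 1.61%. The medians of IgG against untreated tumors were 0.13 at 6 h and −0.31 at day 1. Each turned with 1 tumor left out, to −0.21 at 6 h without IgG replicate 2 and to 0.06 at day 1 without IgG replicate 6, the tumor rich in muscle markers. At an adjusted p under 0.05, 0 of 10 genes and 0% of the 26848 tested passed in each comparison between groups of the first experiment, as in the test for any difference among its 10 groups.

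**Figure D2:**
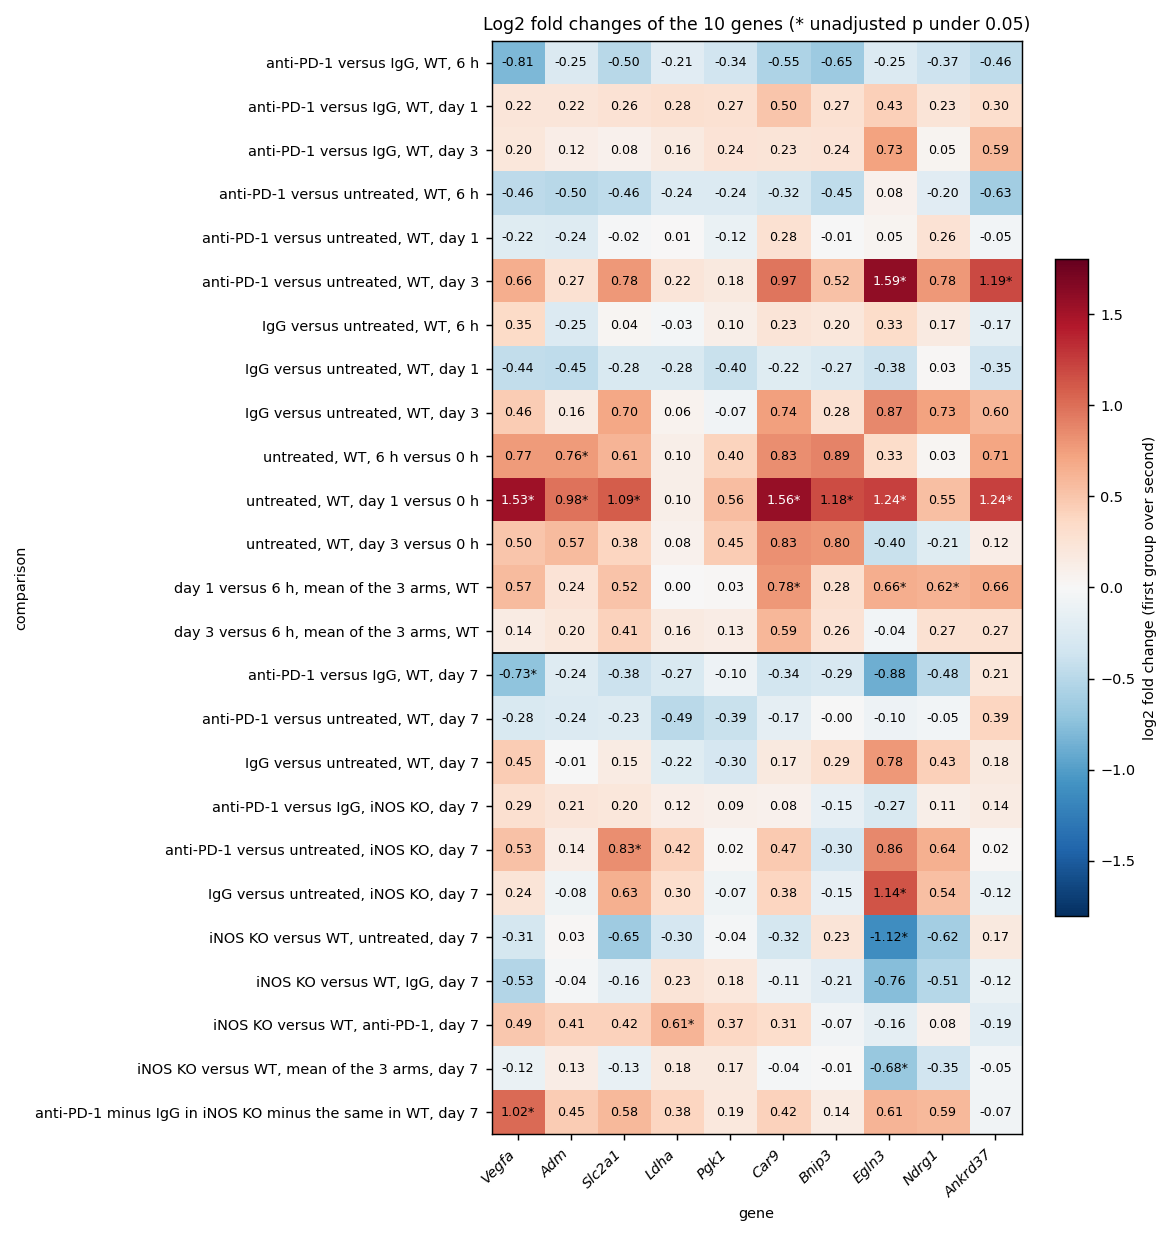
Log2 fold change of each of the 10 genes in each of the 25 comparisons (color), with the first-named group over the second and a star at an unadjusted p under 0.05. All 10 genes are positive for untreated WT tumors at day 1 against 0 h, led by Car9 (1.56) and Vegfa (1.53), the highest single value is that of Egln3 for anti-PD-1 against untreated at day 3 (1.59), and 0 of the 250 values had an adjusted p under 0.05.

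The tumor that stood highest, anti-PD-1 replicate 4 of day 3, had a mean log2 level of 8.13 over the 10 genes and the highest value of all 30 tumors for 9 of them. The exception was Adm, which was highest in untreated replicate 1 of day 1. Its 8 endothelial markers summed to 9.11 CPM, the lowest of the 30 tumors, against a median of 244 CPM, with Esam at 0 and the defining markers Pecam1 and Cdh5 detected. Epas1, which endothelial cells use strongly, was lowest there too (32.7 CPM). Of the 30, only 2 others had under 100 CPM of endothelial markers, IgG replicate 4 of day 1 (37.9 CPM) and untreated replicate 6 of day 1 (58.7 CPM), and they ranked 3 and 5 of 30 by the mean of the 10 genes. The tumor that ranked 2, untreated replicate 1 of day 1, had 363 CPM of these markers. Over the 30 tumors the rank correlation of the endothelial list mean with the mean of the 10 genes was −0.17. The correlation of single marker genes with the mean of the 10 genes was taken over all tumors, with differences between groups left in. Its median was −0.73 over the keratinocyte list and −0.65 over the muscle list (n = 30). At day 7 these medians were −0.59 and −0.35 (n = 18). For the endothelial list the same median was −0.41 (n = 30), and at day 7 it was 0.63 (n = 18), where the endothelial sum ranged from 126 to 390 CPM. The part of vessel cells in these values was not tested. The 2 lowest tumors, IgG replicate 6 of day 1 (mean 5.65) and untreated replicate 3 of 0 h (mean 5.81), held 8757 and 7316 CPM of muscle markers and 763 and 4341 CPM of keratinocyte markers.

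**Figure D3:**
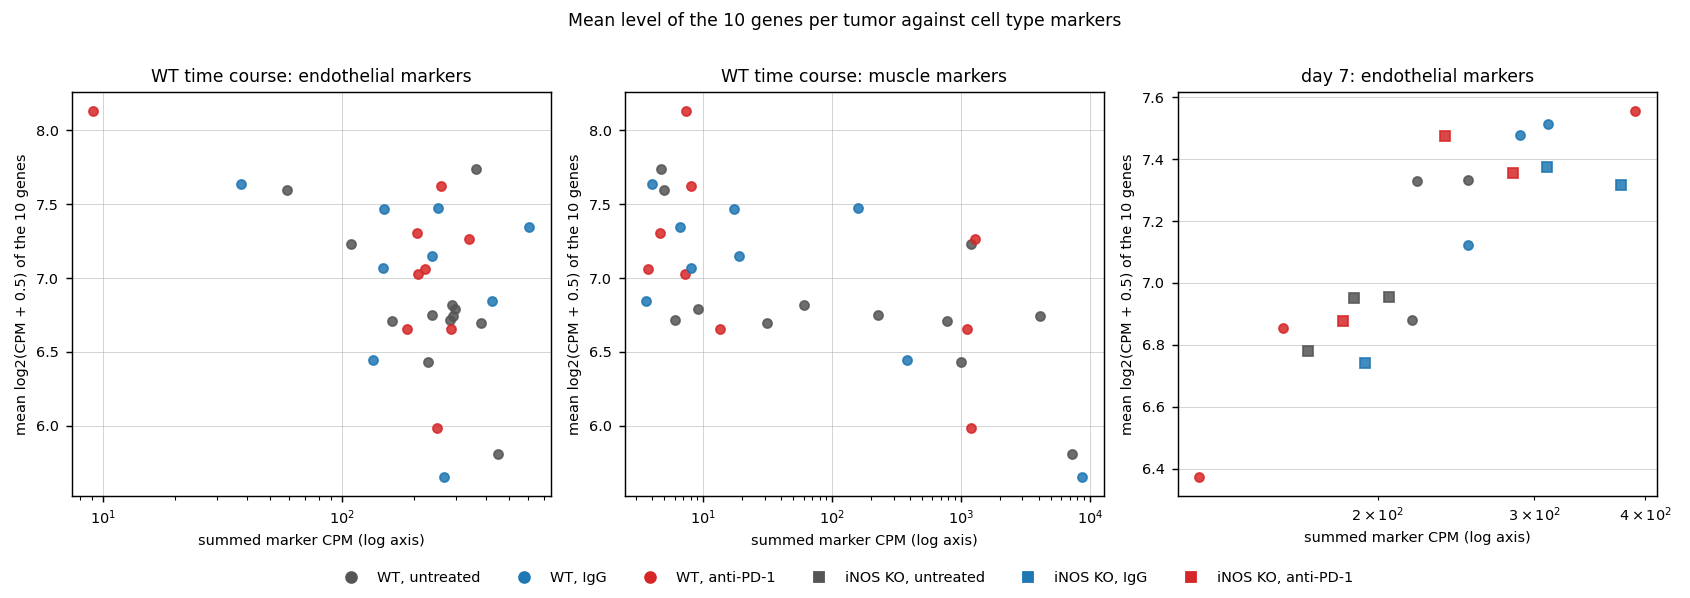
Mean log2(CPM + 0.5) of the 10 genes in each tumor against the summed CPM (log axis) of marker lists, with 1 point per tumor, colored by treatment, and squares for tumors labelled iNOS KO. In the first experiment the tumor with the highest mean (8.13) has the lowest endothelial sum (9.11 CPM), and the tumor with the lowest mean (5.65) has the highest muscle sum (8757 CPM).

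At day 7 the targeted gene Nos2 was read first. Nos2 had 4.21, 2.41 and 4.98 CPM in untreated tumors labelled iNOS KO, 2.47, 5.92 and 5.83 after IgG and 5.40, 1.15 and 1.296 after anti-PD-1. In WT tumors it had 1.40, 3.28 and 3.56 CPM without treatment, 1.45, 3.43 and 2.81 after IgG and 4.09, 7.28 and 2.87 after anti-PD-1. The genotypes overlapped, and over the 3 treatments the log2 fold change was 0.18 (SE 0.33, adjusted p = 1). The gene's count therefore did not separate the labels. Counts per gene do not tell RNA of the injected cells from that of the host, or the deleted part of the gene from the rest. The groups below are named as labelled, and every direction between genotypes rests on those labels.

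In WT tumors of day 7, Vegfa was lower after anti-PD-1 than after IgG in 2 of the 3 anti-PD-1 tumors. It had 629.9, 213 and 375 CPM after anti-PD-1, 524, 754 and 740.5 after IgG and 361, 576 and 540.3 without treatment. The 2 low anti-PD-1 tumors, replicates 3 and 4, are the libraries with the most receptor gene counts, and replicate 2 lay inside the range of the IgG tumors. The low tumors also had little RNA of the 6 fibroblast markers, 370 and 756 CPM, against 4528 CPM in replicate 2 and 3012 to 7559 CPM after IgG. Their macrophage markers summed to 170 and 213 CPM, against 721 CPM in replicate 2 and 418 to 1490 CPM after IgG, and the part of these cells in the result was not tested. The log2 fold change against IgG was −0.73 (SE 0.30, adjusted p = 0.305), and it was −1.20 without replicate 2 and −0.37 without replicate 3. Without replicate 2, 4 of the 10 genes (Slc2a1, Egln3, Ndrg1 and Vegfa) passed the adjusted threshold, all lower, against 4.54% of all genes called lower in that fit, where the median of all genes was 1.802. Vegfa was 1 of 10 genes lower at an unadjusted p under 0.05, against 5.75% of the 30837 genes tested, and 0 of 10 were higher, against 10.6%. Egln3 had 63.1, 12.1 and 16.3 CPM after anti-PD-1 and 51.2, 60.0 and 58.6 after IgG, with a log2 fold change of −0.88 (SE 0.48, adjusted p = 0.318), from −2.01 without replicate 2 to −0.47 without replicate 3. For Egln3 replicate 2 was the highest of the 18 tumors and replicate 3 the lowest.

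The median of the 10 genes was −0.31 for anti-PD-1 against IgG in WT tumors, where the median of all genes was 0.68 and 0.79 with DESeq2's size factors. Leaving out the 3 libraries over 500 CPM of receptor genes left 1 WT anti-PD-1 tumor, replicate 2, assumed to vary like the other groups, and this tumor had the highest mean of the 10 genes of all 18. With that single tumor the median was 0.17 against −0.06 for all genes, with 8 of 10 positive. With 1 tumor left out at a time the median ran from −0.63 without replicate 2 to −0.035 without replicate 3. Against untreated WT tumors the median was −0.20 against 0.96 for all genes, 0.33 with replicate 2 as the single anti-PD-1 tumor and 0.26 with the receptor gene level as a covariate. Without replicate 2 it was −0.69, and 7 of 10 genes were lower at an unadjusted p under 0.05, against 12% of all genes in that fit. IgG against untreated WT tumors had a median of 0.17 against 0.14 for all genes, from 0.0016 without untreated replicate 1 to 0.34 without IgG replicate 1. With the receptor covariate it was 0.42, and 5 of 10 genes were higher at an unadjusted p under 0.05, against 6.38% of all genes in that fit. In these 3 comparisons 0 of 10 genes and 0% of all genes had an adjusted p under 0.05.

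In tumors labelled iNOS KO, the treated groups had higher means than the untreated one for the glucose transporter and the oxygen sensor. Slc2a1 had 71.7, 87.2 and 107 CPM without treatment, 108, 173 and 132 after IgG and 203, 105 and 166 after anti-PD-1. Its log2 fold change of anti-PD-1 against untreated was 0.83 (SE 0.33, adjusted p = 0.286), with 1 anti-PD-1 tumor below the highest untreated one. Egln3 had 14.3, 14.3 and 16.95 CPM without treatment, 12.8, 36.7 and 50.4 after IgG and 38.1, 16.7 and 27.8 after anti-PD-1, and its log2 fold change of IgG against untreated was 1.14 (SE 0.48, adjusted p = 0.314), or 0.71 without IgG replicate 3. Slc2a1 in the first and Egln3 in the second of these comparisons was 1 of 10 genes higher at an unadjusted p under 0.05, against 2.91% and 2.95% of all genes, and 0 of 10 had an adjusted p under 0.05, against 0.0422% and 0.188%. The medians of the 10 genes were 0.44 for anti-PD-1 and 0.27 for IgG, both against the same untreated tumors (all genes −0.44 and −0.45). With the receptor gene level as a covariate they were 0.03 and −0.04, and without untreated replicate 1, the library with raised receptor genes, 0.31 and 0.16. The fibroblast markers summed to 637, 703 and 865 CPM without treatment, 2224, 3706 and 3374 CPM after IgG and 3903, 737 and 2433 CPM after anti-PD-1. The anti-PD-1 tumor with 737 CPM, replicate 2, was the one lowest in its group for Slc2a1 and Egln3, and the part of stroma in these differences was not tested. For anti-PD-1 against IgG the median was 0.11, from 0.004 to 0.24 with 1 tumor left out, and 0 of 10 and 0% of all genes passed.

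**Figure D4:**
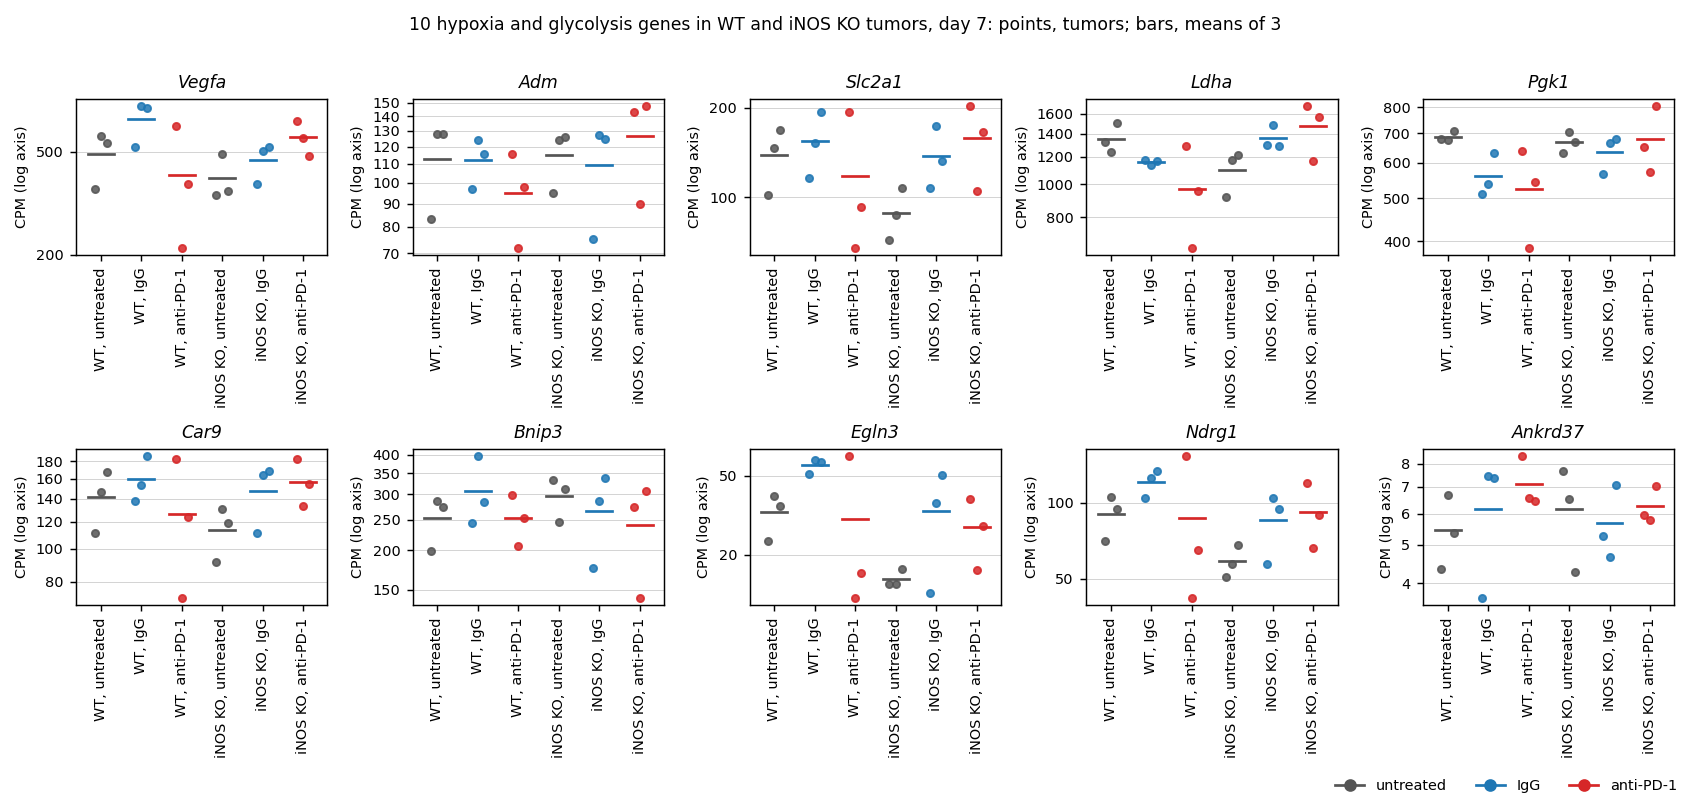
Level of each of the 10 genes (CPM, log axis) in the 18 tumors of day 7 by labelled genotype and treatment, with 1 point per tumor and bars at group means. WT anti-PD-1 replicate 3 is the lowest tumor for 8 of the 10 genes, and the untreated tumors labelled iNOS KO have Egln3 between 14.3 and 16.95 CPM, below all untreated WT tumors.

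Among untreated tumors, Egln3 had the largest difference between genotypes of the 10 genes. It had 14.3, 14.3 and 16.95 CPM in the tumors labelled iNOS KO and 23.5, 39.8 and 35.4 in the WT tumors, which do not overlap, and a log2 fold change of −1.12 (SE 0.48, adjusted p = 0.299). It passed the threshold with no filter on low counts, where 0.425% of all genes were called lower, and with only these 6 libraries in the fit, where 0.102% were. The fold changes there were of like size (−1.15 and −1.05), with smaller SEs (0.24 and 0.20). Ndrg1 had 51.1, 57.4 and 68.1 CPM against 70.7, 105 and 94.7, with a log2 fold change of −0.62 (SE 0.34, adjusted p = 0.304). Ldha had 918, 1176 and 1211 CPM against 1323, 1238 and 1505, with a log2 fold change of −0.30 (SE 0.24, adjusted p = 0.470). These were the 3 of 10 genes without overlap, all lower in the tumors labelled iNOS KO, against 8% of all genes. Egln3 alone of the 10 had an unadjusted p under 0.05, against 3.37%, and 0 of 10 had an adjusted p under 0.05, against 0.587%. The fibroblast markers, at 637 to 865 CPM in the untreated tumors labelled iNOS KO, summed to 876, 3974 and 2249 CPM in the untreated WT tumors. Over all tumors of day 7 the genes of this list had a median correlation of 0.77 with the mean of the 10 genes (n = 18). That value includes the differences between genotypes and treatments. The part of stroma in the Egln3 difference was not tested. The median of the 10 genes was −0.31 against 0.49 for all genes, and 0.05 with the receptor gene level as a covariate.

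After IgG, 3 of 10 genes did not overlap between genotypes (Egln3, Ndrg1 and Vegfa), again lower in tumors labelled iNOS KO, against 6.43% of all genes. Vegfa had 376, 504 and 521 CPM in the tumors labelled iNOS KO and 524, 754 and 740.5 in the WT tumors, so that the nearest values of the groups were 521 and 524 CPM, and the log2 fold change was −0.53 (SE 0.30, adjusted p = 0.626). The Egln3 log2 fold change was −0.76 (SE 0.47, adjusted p = 0.626), and the 95% interval, −1.70 to 0.17, includes 0. Without iNOS KO replicate 1 it was −0.38. After anti-PD-1 the gene with the smallest p was Ldha. Ldha had 1689, 1169 and 1563 CPM in the tumors labelled iNOS KO and 1287, 653 and 956 in the WT tumors, with a log2 fold change of 0.61 (SE 0.25, adjusted p = 0.136), and 0.39 without WT replicate 3. Without WT replicate 2, 4 of the 10 genes (Slc2a1, Ldha, Ndrg1 and Vegfa) passed the adjusted threshold, all higher, against 5.76% of all genes called higher in that fit, where the median of all genes was −2.64. The WT tumors with low Ldha were again replicates 3 and 4. Ldha was 1 of 10 genes higher at an unadjusted p under 0.05, against 5.69% of all genes, and 0 of 10 were lower, against 26.6%. The median of the 10 genes after anti-PD-1 was 0.34 against −0.91 for all genes, from 0.08 without WT replicate 3 to 0.77 without WT replicate 2. It was −0.17 with the receptor gene level as a covariate, and −0.22 without the libraries over 500 CPM of receptor genes, where WT replicate 2 was the single WT tumor. After IgG the median was −0.14, as for all genes, from −0.31 without WT replicate 1 to 0.007 without WT replicate 3. With the receptor covariate it was −0.36, and 4 of 10 genes were lower at an unadjusted p under 0.05, against 5.8% of all genes in that fit. In both comparisons 0 of 10 and 0% of all genes had an adjusted p under 0.05.

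Averaged over the 3 treatments, Egln3 had a log2 fold change between genotypes of −0.68 (SE 0.27, adjusted p = 0.338), or −0.29 without WT anti-PD-1 replicate 2, and Ndrg1 of −0.35 (SE 0.19, adjusted p = 0.486). Egln3 was 1 of 10 genes lower at an unadjusted p under 0.05, against 7.3% of all genes, and 0 of 10 passed the adjusted threshold, against 0.00973%. The other 8 genes had log2 fold changes between −0.13 (Slc2a1) and 0.18 (Ldha). The interaction, which tests whether anti-PD-1 and IgG tumors differ by unequal amounts in the genotypes, was computed for each gene, and the Vegfa value was 1.02 (SE 0.43, adjusted p = 0.670), or 0.65 without WT anti-PD-1 replicate 3. Vegfa was 1 of 10 genes higher at an unadjusted p under 0.05, against 0.973% of all genes, and 0 of 10 and 0% of all genes passed the adjusted threshold. The median was 0.43, from 0.15 without WT anti-PD-1 replicate 3 to 0.73 without replicate 2 of that group. The receptor covariate made it 0.17. Without the 3 libraries over 500 CPM of receptor genes, again with 1 WT anti-PD-1 tumor, it was −0.11. In the test for any difference among the 6 groups of day 7, 0 of 10 genes had an adjusted p under 0.05, against 1.66% of all genes, and the smallest was that of Egln3 (adjusted p = 0.154).

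Within groups the 10 genes varied together. Over the 45 pairs, the correlation of deviations from the group means in log2(CPM + 0.5) had a median of 0.81 (n = 30 tumors, from 0.14 to 0.95), and 40 pairs were over 0.5. At day 7 the median was 0.74 (n = 18 tumors, from −0.045 to 0.94), and 34 pairs were over 0.5. With differences between groups left in, the median was 0.81 in the first experiment (from 0.19 to 0.96). At day 7 it was 0.56 (from −0.23 to 0.95). Slc2a1 was the gene closest to the mean of the other 9 in the first experiment (r = 0.97 over all tumors), and Car9 at day 7 (0.92). Ldha and Ndrg1 were farthest in the first experiment (both 0.67). Ankrd37 had 0.93 in the first experiment and 0.17 at day 7, where its levels spanned only 3.68 to 8.38 CPM. The tumors share library, depth and tissue makeup between genes, so these values describe the tumors and carry no test.

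**Figure D5:**
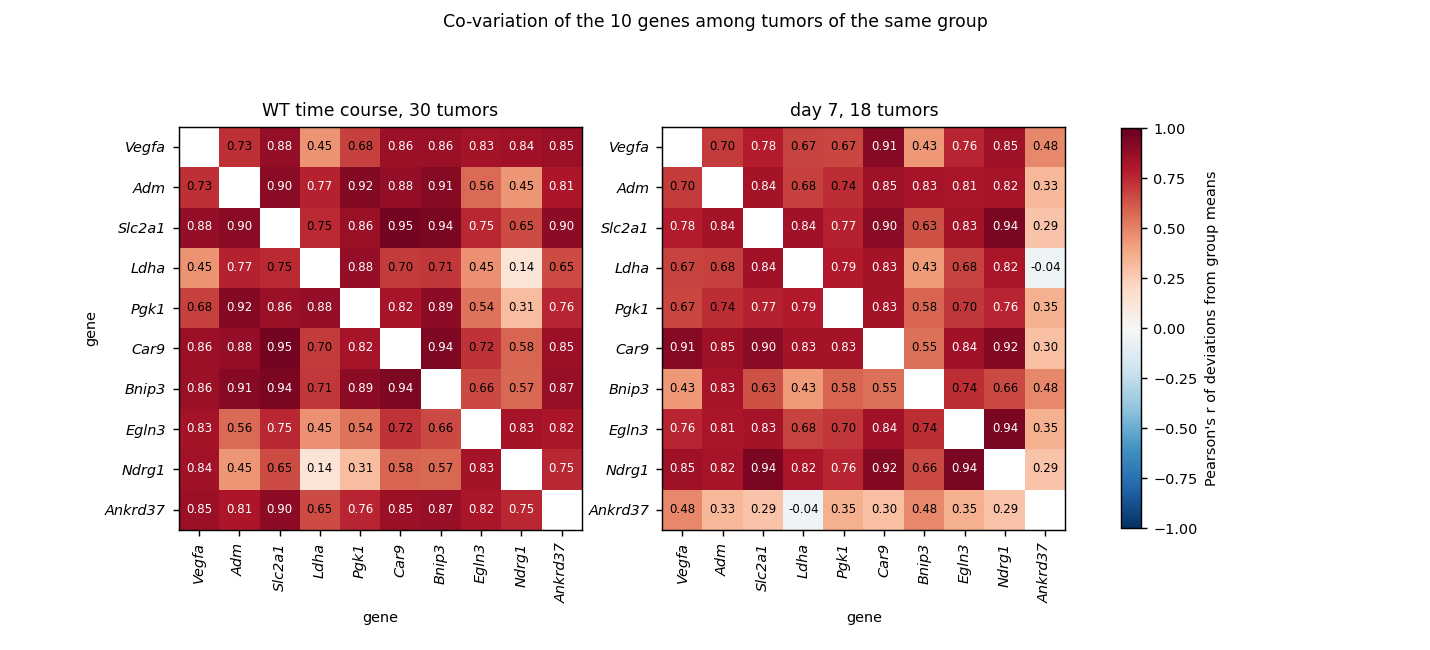
Within-group correlation (r, color) of log2(CPM + 0.5) between each pair of the 10 genes over the 30 WT tumors of the first experiment and the 18 tumors of day 7. Most pairs are strongly positive, with medians of 0.81 and 0.74, and at day 7 Ankrd37 has at most 0.48 with any other gene.

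Other genes were ranked by their correlation with the mean of the 10 over all tumors, with differences between groups left in. Among 25446 genes measured in both experiments, the most alike was Egln1, another oxygen-sensing prolyl hydroxylase (r = 0.97 over 30 tumors and 0.92 over 18). Next came Ier3, an early response gene (0.96 and 0.92), and Pfkp, a phosphofructokinase of glycolysis (0.93 and 0.91). The other 7 of the 10 most alike were Gbe1 and Gys1, which build glycogen, Mxi1, a partner of MAX, Me1, malic enzyme, Anxa4, an annexin, Gpi1, of glycolysis, and Plod2, which modifies collagen, with a smaller r between 0.88 and 0.90.

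RNA of the HIF subunits was compared on the same scale. Hif1a ranged from 142 to 417 CPM in the first experiment and, like Arnt and Epas1, had no adjusted p under 0.05 in any comparison (edgeR, with 1 test of Hif1a, 2 of Arnt and 0 of Epas1 at an unadjusted p under 0.05). Its log2 fold change for anti-PD-1 against untreated WT tumors of day 7 was −0.58 (adjusted p = 0.142). Arnt ranged from 51.2 to 75.9 CPM in the first experiment and from 38.2 to 73.9 CPM at day 7, where it was lowest in WT anti-PD-1 replicate 3. Its log2 fold change in WT tumors of day 7 was −0.39 for anti-PD-1 against IgG (adjusted p = 0.305) and −0.41 against untreated tumors (adjusted p = 0.146). In the first experiment Epas1 ranged from 32.7 to 420.3 CPM, and was highest in the 0 h tumor with the most keratinocyte markers and lowest in the anti-PD-1 tumor of day 3 with the least endothelial RNA. With differences between groups left in, the correlation with the mean of the 10 genes was 0.50 for Hif1a, 0.49 for Arnt and −0.50 for Epas1 over the 30 tumors. Over the 18 it was 0.63, 0.61 and 0.89. HIF alpha subunits are known to be set by protein stability, which these counts do not measure.

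Other genes of the pathway were counted in 4 lists that hold none of the 10 genes. None of 35 further hypoxia-responsive genes, 16 further genes of glycolysis, 10 genes of the HIF system and 16 angiogenic genes had an adjusted p under 0.05 in any comparison. From 0 h to day 1 in untreated tumors, 14 of the 35 hypoxia-responsive genes had an unadjusted p under 0.05 in the higher and 2 in the lower direction (median log2 fold change 0.51), against 2.58% and 4.27% of all genes, and 5 of 16 glycolysis genes were higher and 1 lower (median 0.47), where all genes had a median of −0.04. Of the HIF system 1 of 10 was higher (median −0.12), as was 1 of 16 angiogenic genes (median −0.17). These list counts use the same 0 h tumors, rich in muscle and keratinocyte markers, and the part of those tissues in them was not tested. From 6 h to day 1 over the 3 treatments, 14 of 35 hypoxia-responsive genes were higher and 0 lower (median 0.41), against 9.39% and 7.55% of all genes, and 4 of 16 glycolysis genes were higher (median 0.18). At day 7, anti-PD-1 against IgG in WT tumors had 1 hypoxia-responsive gene higher and 10 lower (median −0.29), against 10.6% and 5.75% of all genes. The glycolysis and angiogenic lists had a lower gene each at such a p there, and the HIF system had genes in both directions. After anti-PD-1 the tumors labelled iNOS KO had 6 of 16 glycolysis genes higher and 0 lower than WT tumors (median 0.49), against 5.69% and 26.6%. The hypoxia-responsive, HIF system and angiogenic lists each had genes at such a p in both directions there. Both of these last comparisons use the WT anti-PD-1 libraries with the raised receptor gene counts.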

How the data were processed

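RNA was measured in 48 mouse tumors, 3 in each of 16 conditions. The authors found adapters with BBMerge and removed them with cutadapt 1.8.1, aligned reads to mm10 with STAR 2.7.7a, ran RSEM 1.3.0 on GENCODE vM21 for the read count of each gene, and used DESeq2 for their tests. The deposited table gives these counts as whole numbers, not normalized, for 55450 genes, and its name refers to another counting program. All 55450 identifiers matched vM21. Groups came from the sample titles, since only 14 of 48 treatment fields and 11 of 30 time fields match them and 9 titles with KO carry a genotype field of WT. The count of 11 takes a title of D0 as a match to a time field of 6 h, which such titles do not state. The titles of the 6 h groups read D0, and 6 h came from the time field of 8 of these 9 tumors and from the paper, as did day 7.

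Fits were made per experiment in R 4.3.3 with edgeR 4.0.16 (TMM, filterByExpr with a minimum count of 10, quasi-likelihood F-test, Benjamini-Hochberg adjustment over all genes tested, threshold 0.05). This covered 26848 genes with 20 residual degrees of freedom (coefficient of variation 0.671) and 30837 genes with 12 (0.786), and included all 10 genes. Libraries had 25574203 to 47687872 and 11625862 to 40959309 counts on genes, and at these depths the spread between mice, not counting, set the errors. Means over the 10 genes and correlations used log2(CPM + 0.5). Alternatives were DESeq2 1.42.0, its size factors in edgeR, no filter, a replicate block, only the groups compared, the CPM on 1781 receptor genes as a covariate, leaving out libraries over 500 CPM on them, each replicate left out in turn and, chosen after seeing the data, 2 settings for muscle markers. Replicate numbers were not taken as pairs. Replicates were not copies (chi-square per gene of at least 16.2 in every pair of a group). The scripts were tested on simulated data. Similar transcripts were found with BLAST 2.17.0, and promoter windows came from RefSeq.

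The 10 genes, the lists of other genes and the comparisons were chosen with earlier results of these data known. Always named were the 10 genes, Hif1a, Epas1, Arnt and Nos2. From the other lists, 4 genes at most that were higher and 4 that were lower, all past the adjusted threshold, were to be named, which gave none, and the 10 genes most alike were named by the smaller of their correlations in the experiments.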

Additional observations from a re-analysis of the deposited data

How the results depend on the processing

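The count of the 10 genes with an adjusted p under 0.05 was 0 in every comparison and stayed 0 in 191 of 202 counts under other settings and in 236 of 240 with 1 tumor left out. With no filter on low counts it was 3 for untreated WT tumors at day 1 against 0 h, 2 for day 1 against 6 h over the 3 treatments, 1 for anti-PD-1 against IgG in WT tumors of day 7, 2 for anti-PD-1 and 1 for IgG against untreated tumors labelled iNOS KO, 1 for iNOS KO against WT without treatment, 1 over the 3 treatments, 4 for any difference among the 10 WT groups and 3 among the 6 of day 7, comparisons in which 0.82% to 14.4% of all genes passed. The unfiltered fit also takes in genes with very few counts, and gave smaller SEs at like fold changes. For Egln3 in untreated iNOS KO against WT tumors the SE was 0.24 without the filter and 0.48 with it. These passes come from the same counts and are no separate evidence. The count of genes passing was 1 (Egln3) for untreated iNOS KO against WT tumors with only these groups in the fit, and 1 (Ldha) for iNOS KO against WT after anti-PD-1 with DESeq2. With 1 tumor left out it ranged from 0 to 4 for anti-PD-1 against IgG in WT tumors of day 7, from 0 to 1 against untreated WT tumors, from 0 to 4 for iNOS KO against WT after anti-PD-1 and from 0 to 4 for any difference at day 7, each time through WT anti-PD-1 replicate 2, without which 5.96%, 12%, 13% and 18.2% of all genes passed. The cause was not tested. Each of 20 fold changes with an unadjusted p under 0.05 kept its direction in all 327 alternatives, 13 of which passed the threshold. They were chosen by that p in the same libraries, so a reversal was unlikely from the start and the count is no test of stability. The median over the 10 genes, which was not chosen by a p, changed sign under some alternative in 15 of 25 comparisons.

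With the replicate block the count was 0 in every comparison. The sign of the median of the 10 genes turned with the block in 1 of 25 comparisons, anti-PD-1 against untreated tumors at 6 h (−0.38 to 0.018). At day 1 the block moved the medians against untreated tumors from −0.31 to −0.83 for IgG, with 2 genes at an unadjusted p under 0.05, and from −0.02 to −0.38 for anti-PD-1. It moved those of anti-PD-1 against IgG at 6 h from −0.41 to −0.16 and of day 1 against 6 h over the 3 treatments from 0.55 to 0.43, where 3 genes at such a p became 0. Same-numbered tumors of different groups did not deviate together, with a median correlation of −0.005 over 65 pairs (8 over 0.1) in the first experiment and −0.013 over 36 pairs (5 over 0.1) at day 7, so the numbers do not pair the tumors. With 3 tumors per group and a coefficient of variation of 0.671 or 0.786, precision was limited, as the 95% interval of the Vegfa log2 fold change from 0 h to day 1, 0.50 to 2.55, shows.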
